A study of Mus musculus with 8 samples.

Results

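The type I interferon response genes are 40 genes, chosen by name as interferon-stimulated genes and sensors of foreign RNA, out of 55487 gene identifiers measured. They were examined in RNA from the dorsomedial hypothalamus (DMH) of mice, where one group received a hairpin RNA targeting Ppp1r17 (shPpp1r17) and the other a hairpin targeting firefly luciferase, a gene that mice lack (shfLuc). Ppp1r17 encodes a protein that inhibits phosphatases. There were 4 libraries in each group, and both groups carried a hairpin, so an effect of hairpins as such was not part of the comparison. The sample titles carry the abbreviation LMD, commonly used for laser microdissection. The sources used here do not give the strain, sex and age of the mice, the vector, the time after delivery, or whether the libraries came from different animals. The p-values therefore cover only the spread among these 8 libraries, part of which may be technical.

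Type I interferons are secreted when a cell senses viral or other foreign nucleic acid through sensors such as RIG-I (Ddx58) and MDA5 (Ifih1). They bind a shared receptor, whose kinases activate a complex containing STAT2 and IRF9 that binds the interferon-stimulated response element (ISRE) in target promoters. Double-stranded RNA, including some hairpins, is a known trigger of this pathway, and in brain microglia are among the cells that respond to interferon.

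Several effectors of the response were higher in shPpp1r17, while none of the tested sensors and transcription factors among the members passed the test. The member sensor Zbp1 was too low to be tested. Ifi204, a DNA sensor that is not a member, was called higher and is described with the rest of the pathway. Isg15, Usp18, Ifitm3, Rtp4 and Trim30a passed the threshold (adjusted p under 0.05, quasi-likelihood test of edgeR), with log2 fold changes of 0.87 to 1.38. No member was called lower. The count was 5 of 37 members tested, where 3.39% of all 17339 genes tested were called higher, 2.66% lower and 6.06% in either direction. The median log2 fold change was 0.55 over the 37 tested members and 0.00 over all tested genes, whose interquartile range was -0.18 to 0.20. Values above 0 were found for 30 of the 37 members and for 50.6% of all tested genes. At an unadjusted p under 0.05, 17 members were higher and 1 was lower, against 11.6% and 11% of all tested genes.

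None of the 5 calls held in edgeR when shfLuc 2, 3 or 4 or shPpp1r17 2 or 3 was left out. In each of these fits edgeR called 0 members, with 11 to 15 members higher at an unadjusted p under 0.05. Limma voom also called 0, while DESeq2 called 4 to 9. Without shPpp1r17 2, the DESeq2 calls held 4 of the 5 genes (all but Isg15), and without any of the other libraries named they held all 5. Calls fell across all genes in the same fits. Without shfLuc 2 or shfLuc 3, edgeR called 0 of 17778 and 0 of 17773 genes. Of all genes tested, 1.62% were called in either direction without shfLuc 4, 1.75% without shPpp1r17 2 and 1.11% without shPpp1r17 3. At an unadjusted p under 0.05, 8.3% to 9.91% of all genes were higher in these 5 fits. The log2 fold changes of the 5 genes stayed between 0.71 and 1.83 with any 1 library left out.

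**Figure D1:**
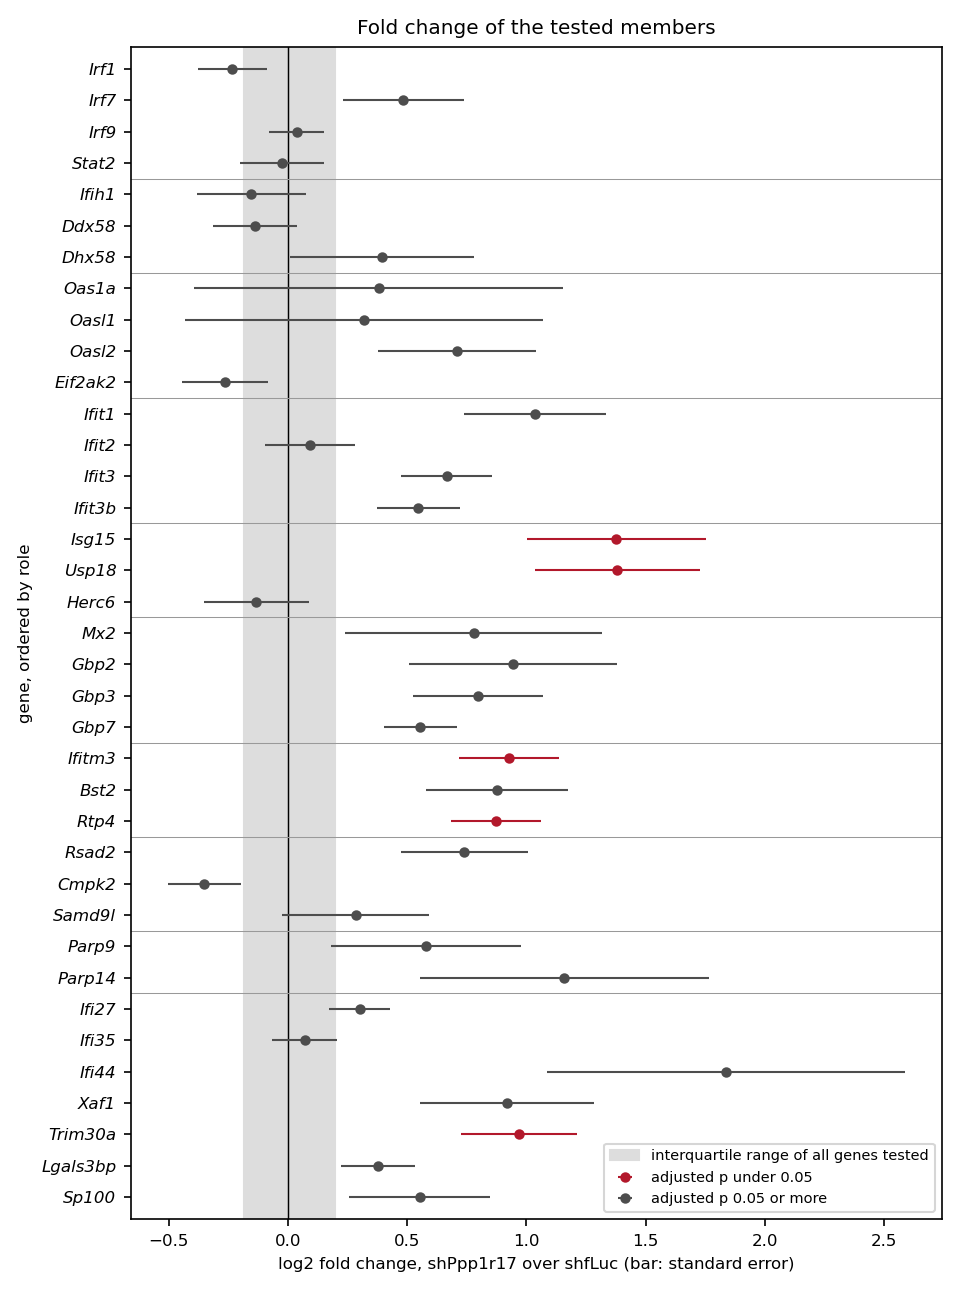
Log2 fold change of the 37 tested members, shPpp1r17 over shfLuc, with standard error bars, in blocks by role; the grey band is the interquartile range of all 17339 genes tested (-0.18 to 0.20). Red points mark Isg15, Usp18, Ifitm3, Rtp4 and Trim30a, while the 7 transcription factors and sensors in the top blocks lie between -0.23 and 0.48.

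Transcripts of the type I interferons themselves were at or near 0 reads. Of 17 type I ligand genes, 14 had 0 reads in all 8 libraries, and all 17 together had 4 reads. Ifnb1, the interferon beta gene, had 2 reads in shPpp1r17 3 and 0 in every other library. A count of 0 allowed a level of up to 0.0885 to 0.117 CPM (reads scaled to library size) in the shPpp1r17 libraries and 0.117 to 0.130 CPM in the shfLuc libraries, for counting error alone. Ifng, the type II interferon made by T and NK cells, had 2, 15, 8 and 7 reads in shPpp1r17 1 to 4 and 4, 5, 6 and 1 in shfLuc 1 to 4. It was too low to be tested, and the groups overlapped.

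The ISG15 system supplied the largest fold changes among the called members. Isg15 encodes a ubiquitin-like protein that is attached to other proteins during an interferon response. It stood at 2.97, 5.27, 3.83 and 3.26 CPM in shPpp1r17 1 to 4, against 2.68, 1.32, 1.28 and 0.63 CPM in shfLuc 1 to 4. All shPpp1r17 libraries lay above all shfLuc libraries, and the narrowest gap was between shPpp1r17 1 and shfLuc 1. The log2 fold change was 1.38 (SE 0.38, adjusted p = 0.0483; with effective gene lengths as an offset it missed the threshold, at 0.0535), from 76 to 135 reads per shPpp1r17 library and 16 to 62 per shfLuc library. In all, the groups did not overlap, with shPpp1r17 higher, for Isg15, Ifitm3, Rtp4 and Trim30a, which are 4 of the 37 tested members (7.12% of all tested genes). For 0 members did they lie apart with shPpp1r17 lower (6.74% of all tested genes, and 13.9% in either direction).

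Usp18, the protease that removes ISG15 and also restrains signalling from the interferon receptor, stood at 4.80, 17.2, 8.22 and 8.05 CPM in shPpp1r17 1 to 4. In shfLuc 1 to 4 it stood at 5.57, 2.90, 3.03 and 3.19 CPM. The groups overlapped, because shfLuc 1 lay above shPpp1r17 1, and shPpp1r17 2 was far above every other library. The log2 fold change was 1.38 (SE 0.35, adjusted p = 0.0353). Usp18 did not pass with limma voom (adjusted p = 0.0709) or with limma on log2(TPM + 1) (adjusted p = 0.0662). Herc6, the mouse ligase that attaches ISG15, had a log2 fold change of -0.13 (SE 0.22).

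**Figure D2:**
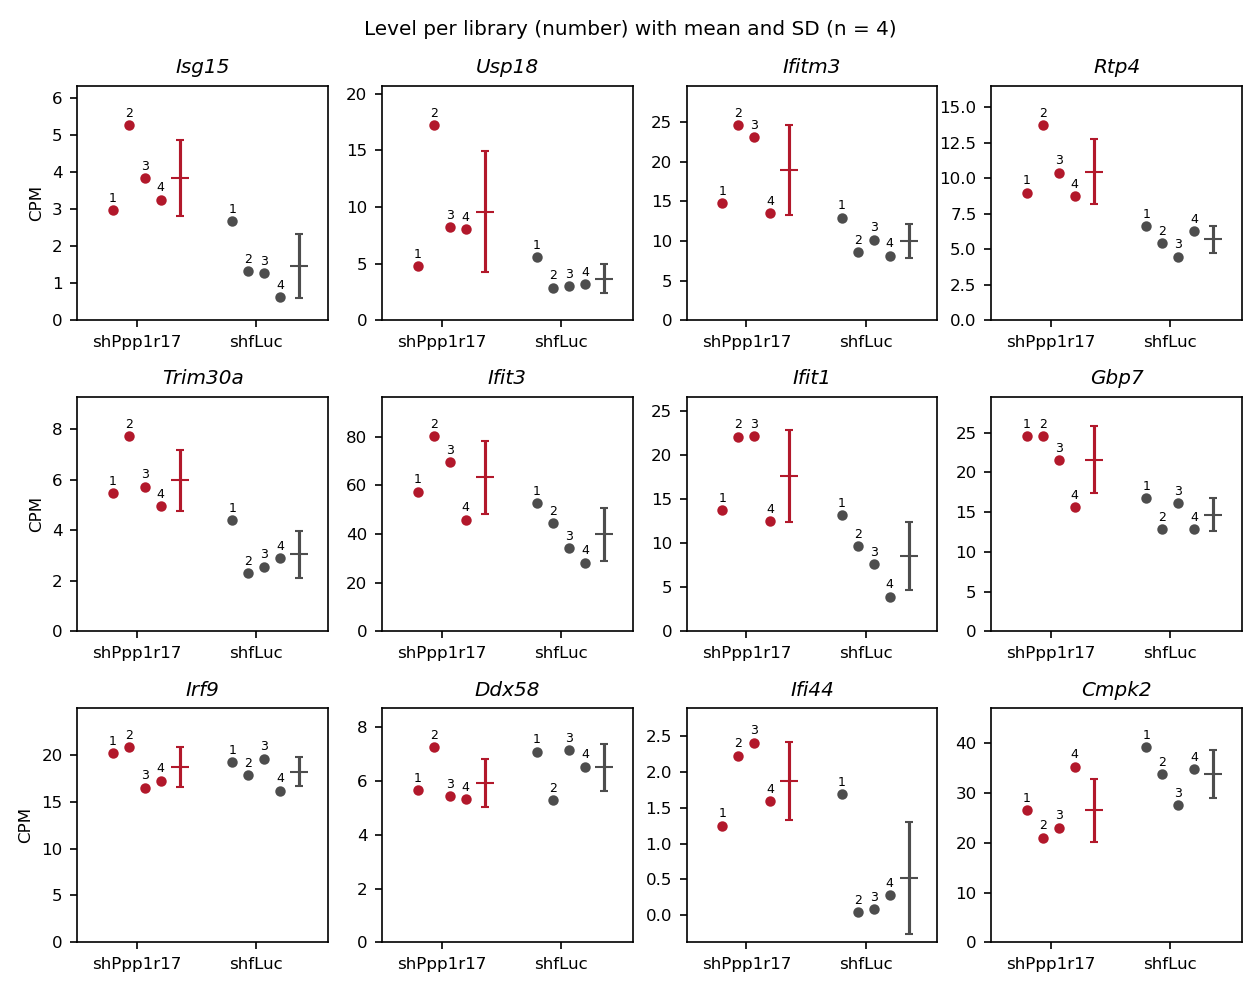
Level in CPM of 12 members in each library, with the library number over each point and the group mean and SD (n = 4) beside the points. Isg15, Ifitm3, Rtp4 and Trim30a show groups that lie apart, shfLuc 1 is the highest shfLuc point of Isg15, Usp18, Ifit1 and Ifi44, and Irf9 and Ddx58 show overlapping groups.

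The 3 members grouped as membrane restriction factors and chaperone had similar log2 fold changes, and 2 of them passed the test. Ifitm3, which blocks the fusion of viruses in endosomes, stood at 14.8, 24.6, 23.1 and 13.5 CPM in shPpp1r17 1 to 4 and at 13.0, 8.65, 10.2 and 8.18 CPM in shfLuc 1 to 4. The groups lay apart, with shPpp1r17 4 just above shfLuc 1, and the log2 fold change was 0.93 (SE 0.21, adjusted p = 0.0241). Rtp4, a chaperone of membrane receptors, stood at 8.99, 13.8, 10.4 and 8.73 CPM in shPpp1r17 1 to 4, against 6.61, 5.45, 4.49 and 6.29 CPM in shfLuc 1 to 4. It had the smallest adjusted p of the members (0.0200), with a log2 fold change of 0.87 (SE 0.19) and groups that lay apart. Bst2, or tetherin, which holds budding virions at the cell surface, had a log2 fold change of 0.88 (SE 0.30) that missed the threshold (adjusted p = 0.0990).

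Trim30a, a TRIM family protein known in mice as a restraint on inflammatory signalling, was the remaining called member. It stood at 5.47, 7.73, 5.73 and 4.97 CPM in shPpp1r17 1 to 4 and at 4.41, 2.30, 2.56 and 2.91 CPM in shfLuc 1 to 4. Every shPpp1r17 library lay above every shfLuc library (log2 fold change 0.97, SE 0.24, adjusted p = 0.0352). With limma on log2(TPM + 1) it missed the threshold (adjusted p = 0.0574). Its transcript shares a stretch of 1719 bases at 90.1% identity with the neighbouring paralog Trim30d, so some reads could have been assigned to either. Trim30d had 793 reads over all 8 libraries. Rtp4 is 100% identical to Gm45338 over 296 bases, and Gm45338 had 198 reads. Isg15 likewise shares 482 bases at 95.2% identity with AC151275.1, which had 22 reads over all 8 libraries.

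The IFIT family, proteins that bind viral RNA and block its translation, lies in a single cluster on chromosome 19, in the order Ifit2, Ifit3, Ifit3b, Ifit1, with 7111, 19238 and 27469 bases between neighbours (GRCm38). None of the 4 passed the threshold, and 3 missed it by little. Ifit3, the second most abundant member by length-scaled level, had 57.4, 80.2, 69.4 and 45.9 CPM in shPpp1r17 1 to 4 and 52.6, 44.4, 34.2 and 28.2 CPM in shfLuc 1 to 4. Only shPpp1r17 4 overlapped with shfLuc 1, and the log2 fold change was 0.67 (SE 0.19, adjusted p = 0.0577). Ifit1 had a log2 fold change of 1.04 (SE 0.30, adjusted p = 0.0582) and Ifit3b one of 0.55 (SE 0.17, adjusted p = 0.0838). Ifit2, at the head of the cluster, had one of 0.09 (SE 0.19).

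Ifit3 and Ifit3b are 97.8% identical over 1700 bases, so their split is uncertain. Their sum was 82.2, 123, 106 and 75 CPM in shPpp1r17 1 to 4 and 78.6, 71.5, 54.6 and 45.3 CPM in shfLuc 1 to 4. The sum showed the same overlap of shPpp1r17 4 with shfLuc 1 as Ifit3 alone.

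Among the GTPases, which include the guanylate-binding proteins that attack pathogen vacuoles, 0 of 4 tested members passed. Gbp7, Gbp3 and Gbp2 are neighbours on chromosome 3, with 9876 and 47392 bases between them. Gbp7 stood at 24.6, 24.5, 21.6 and 15.6 CPM in shPpp1r17 1 to 4, against 16.8, 12.9, 16.1 and 12.9 CPM in shfLuc 1 to 4. The library shPpp1r17 4 lay within the shfLuc range, and the log2 fold change of 0.55 (SE 0.15) just missed the threshold (adjusted p = 0.0512). Gbp3 stood at 21.1, 21, 16.9 and 9.14 CPM in shPpp1r17 1 to 4 and 13.3, 11.4, 8.67 and 5.78 CPM in shfLuc 1 to 4. Again shPpp1r17 4 alone fell among the shfLuc libraries, and the log2 fold change was 0.80 (SE 0.27, adjusted p = 0.104).

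The antiviral GTPase Mx1 had 0, 17, 5 and 0 reads in shPpp1r17 1 to 4 and 10, 4, 0 and 0 in shfLuc 1 to 4, and it was too low to be tested. Mx2, annotated as a polymorphic pseudogene, was tested at 0.74 ± 0.42 CPM in shPpp1r17 and 0.43 ± 0.24 CPM in shfLuc (SD, n = 4). Mx1 and Mx2 share 94.8% identity over about 920 bases, so their counts are uncertain as well.

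The tested sensors and transcription factors among the members did not pass the test. Ddx58 stood at 5.67, 7.26, 5.44 and 5.32 CPM in shPpp1r17 1 to 4 and at 7.09, 5.28, 7.14 and 6.53 CPM in shfLuc 1 to 4. The groups overlapped (log2 fold change -0.14, SE 0.18, adjusted p = 0.699), as they did for Ifih1 (-0.15, SE 0.23). Dhx58, the regulator LGP2, stood at 0.70, 2.03, 1.94 and 1.65 CPM in shPpp1r17 1 to 4 and at 0.82, 1.06, 1.58 and 1.34 CPM in shfLuc 1 to 4, with shPpp1r17 1 the lowest of all 8. Its log2 fold change was 0.39 (SE 0.39, adjusted p = 0.597), and on log2(TPM + 1) the sign turned (-0.041).

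Zbp1, the sensor of Z-form nucleic acid that can start necroptosis, was too low in too few libraries to be tested. It had 48, 38, 7 and 13 reads in shPpp1r17 1 to 4 and 17, 2, 4 and 0 in shfLuc 1 to 4. The highest shfLuc library again was shfLuc 1, which lay above shPpp1r17 3 and 4.

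Irf9, the DNA-binding part of the STAT complex, stood at 20.2, 20.8, 16.5 and 17.2 CPM in shPpp1r17 1 to 4 and at 19.2, 17.8, 19.6 and 16.2 CPM in shfLuc 1 to 4. The groups overlapped, and the log2 fold change was 0.04 (SE 0.11, adjusted p = 0.891). Irf7, which amplifies interferon production and is itself interferon-induced, stood at 2.97, 4.29, 4.24 and 3.35 CPM in shPpp1r17 1 to 4, against 3.15, 3.37, 2.05 and 2.04 CPM in shfLuc 1 to 4. Libraries shPpp1r17 2 and 3 were above all shfLuc libraries and shPpp1r17 1 and 4 were not (log2 fold change 0.48, SE 0.25, adjusted p = 0.280). Stat2 (-0.02, SE 0.18) and Irf1 (-0.23, SE 0.14) were near or below 0 on the log2 scale.

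The enzymes activated by double-stranded RNA, the OAS family and PKR, gave 0 calls among 4 tested members. PKR (Eif2ak2), the kinase that stops translation on binding double-stranded RNA, had a log2 fold change of -0.26 (SE 0.18, adjusted p = 0.424). Oasl2, a relative of the oligoadenylate synthetases, stood at 16.6, 19.2, 13.0 and 7.53 CPM in shPpp1r17 1 to 4 and at 14.9, 8.22, 4.44 and 6.88 CPM in shfLuc 1 to 4. Its spread within each group was wide, with shfLuc 1 above shPpp1r17 3 and 4 (log2 fold change 0.71, SE 0.33, adjusted p = 0.229). Oas1a and Oasl1 were tested at low levels, with standard errors of 0.77 and 0.75, and Oas2 had at most 8 reads in any library. Oas1a is 97.6% identical to Oas1g over 1861 bases.

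A pair of neighbours on chromosome 12 had log2 fold changes of opposite sign, and neither passed the test. Rsad2 (viperin), which makes a chain-terminating nucleotide, and Cmpk2, a mitochondrial nucleotide kinase, lie 12751 bases apart on opposite strands and are known to be induced together by interferon. Rsad2 stood at 5.35, 5.35, 6.72 and 3.65 CPM in shPpp1r17 1 to 4, against 2.94, 4.73, 2.65 and 2.28 CPM in shfLuc 1 to 4. The groups overlapped through shPpp1r17 4 and shfLuc 2 (log2 fold change 0.74, SE 0.27, adjusted p = 0.121).

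Cmpk2 stood at 26.6, 21.1, 23.1 and 35.3 CPM in shPpp1r17 1 to 4 and at 39.3, 33.8, 27.6 and 34.9 CPM in shfLuc 1 to 4. It was the 1 member with an unadjusted p under 0.05 in the lower direction (log2 fold change -0.35, SE 0.15, adjusted p = 0.192). Libraries shPpp1r17 1 to 3 lay below all shfLuc libraries and shPpp1r17 4 did not. The difference between the fold changes of the 2 genes was not tested. Without shPpp1r17 4, Cmpk2 was called lower in edgeR.

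The ADP-ribosyltransferases Parp14 and Parp9, which modify proteins in the interferon response, varied widely. Parp14 stood at 2.11, 4.33, 2.52 and 0.35 CPM in shPpp1r17 1 to 4 and at 1.17, 1.49, 0.30 and 1.18 CPM in shfLuc 1 to 4. The lowest 2 of the 8 libraries came 1 from each group (log2 fold change 1.16, SE 0.61, adjusted p = 0.281). Parp9 stood at 2.23, 6.29, 4.67 and 2.09 CPM in shPpp1r17 1 to 4, against 2.72, 4.0, 2.09 and 1.38 CPM in shfLuc 1 to 4. Only shPpp1r17 2 and 3 exceeded every shfLuc library (log2 fold change 0.58, SE 0.40, adjusted p = 0.426), and without these 2 libraries the value was -0.24.

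Of the remaining members, Ifi27, a small membrane protein, was the most abundant in both groups. It averaged 85.6 ± 10.3 TPM (the deposited levels, scaled to gene length and library) in shPpp1r17 and 76.0 ± 9.76 TPM in shfLuc (SD, n = 4). Its CPM was 47.2, 55.8, 51.8 and 40.2 in shPpp1r17 1 to 4 and 47.3, 43.4, 35.2 and 32.4 in shfLuc 1 to 4, with a log2 fold change of 0.30 (SE 0.13, adjusted p = 0.188). The groups overlapped, and Ifit3, Ifitm3 and Lgals3bp followed it at 49.6, 48.6 and 35.3 TPM in shPpp1r17 and 33.1, 27.1 and 29.3 TPM in shfLuc.

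Ifi44, an interferon-induced protein of unclear function, had the largest log2 fold change of the tested members (1.84, SE 0.75, adjusted p = 0.166). It had 32, 57, 66 and 54 reads in shPpp1r17 1 to 4 and 39, 1, 2 and 7 in shfLuc 1 to 4. It reached the minimum level of the expression filter, 0.389 CPM, in all 4 shPpp1r17 libraries and in 1 shfLuc library. It was the only member that passed the filter in this way, and 32 of the 40 members were above that level in all 8 libraries.

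**Figure D3:**
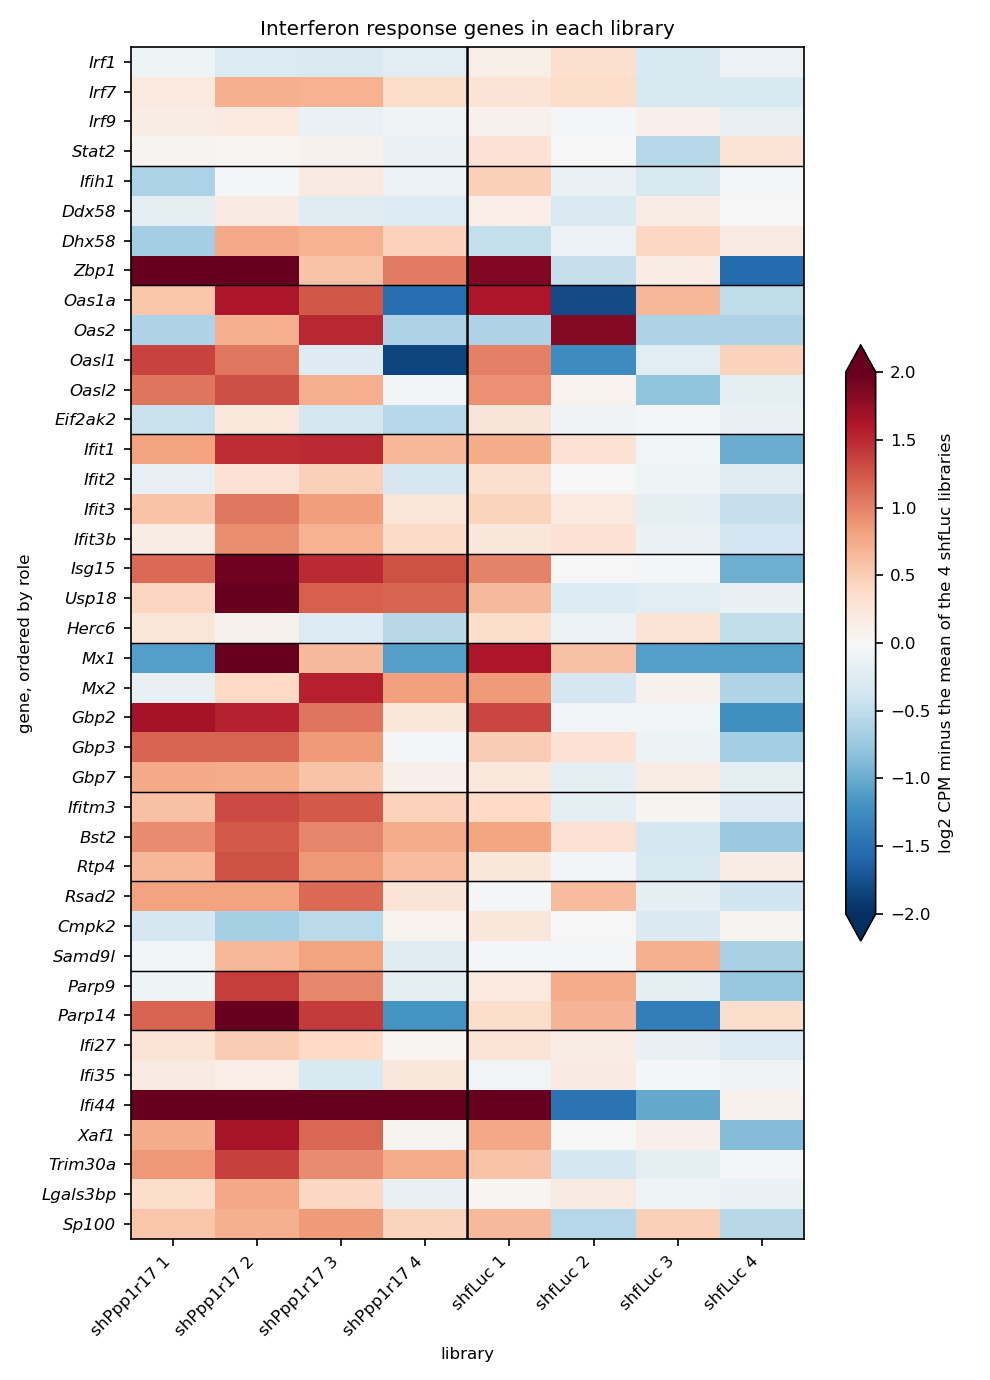
Difference of each member's log2 CPM from the mean of the 4 shfLuc libraries, with 1 row per member ordered by role and 1 column per library; colours are capped at 2 in either direction. Red is most frequent in shPpp1r17 2 and 3, the column of shfLuc 1 is redder than the other shfLuc columns, and shPpp1r17 4 is mostly pale.

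Library by library, the members split the shPpp1r17 group. Their median difference from the shfLuc mean was 0.40, 0.86, 0.77 and 0.06 in shPpp1r17 1 to 4 and 0.34, -0.00, -0.12 and -0.27 in shfLuc 1 to 4, in log2 CPM. The median over all tested genes was within 0.02 of 0 in every library. Libraries shPpp1r17 2 and 3 were the highest, shPpp1r17 1 was close to shfLuc 1, and shPpp1r17 4 was below shfLuc 1, so the groups overlapped.

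The number of the 40 members above every shfLuc library was 18, 28, 24 and 8 in shPpp1r17 1 to 4. The same count was not made over all tested genes, so these numbers have no background and are given as a description only. The summed level of the members was 390, 508, 426 and 340 TPM in shPpp1r17 1 to 4, against 380, 335, 302 and 257 TPM in shfLuc 1 to 4. The highest of the 8 libraries was shPpp1r17 2 for 19 of the 40 members and for 15.3% of all tested genes. Among the shfLuc libraries, shfLuc 1 was the highest for 27 of the 40 members and for 29.5% of all tested genes.

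With shfLuc 1 set aside, the groups did not overlap, with shPpp1r17 higher, for 10 of the 37 tested members and for 10.7% of all tested genes. The edgeR fit without shfLuc 1 called 11 members higher, where 3.43% of all genes tested in that fit were called higher. Those 11 held all 5 members named above, together with Ifit1, Ifit3, Gbp2, Gbp7, Bst2 and Ifi44. The library set aside was the shfLuc library with the highest level of 27 of the 40 members, so its removal by itself favours higher calls. Ifi44 was below 0.389 CPM in all 3 remaining shfLuc libraries.

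The targeted gene divided the shPpp1r17 libraries in a related way. Ppp1r17 stood at 87.8, 2.07, 3.10 and 87.2 CPM in shPpp1r17 1 to 4 and at 147, 161, 161 and 171 CPM in shfLuc 1 to 4. All shPpp1r17 libraries were below all shfLuc libraries (exact two-sided permutation p = 0.0286, the smallest that 4 against 4 libraries allow), and the edgeR test gave a log2 fold change of -1.83 (SE 0.80, adjusted p = 0.197). The 2 libraries with the least Ppp1r17 had the highest member medians. Libraries shPpp1r17 1 and 4 had nearly equal Ppp1r17 and member medians of 0.40 and 0.06. Some other DMH markers also divided the group. Brs3 differed from the shfLuc mean by -0.39, -2.61, -2.39 and -0.60 log2 CPM in shPpp1r17 1 to 4, and Grp by -0.10, -0.98, -1.07 and 0.12. Of 7 DMH markers, Ppp1r17 included, 5 had fold changes below 0 and 2 (Lepr and Nts) above 0. The 1 marker of the 7 that edgeR called was Nts, in the higher direction, where 3.39% of all tested genes were called higher. Nts did not divide the group. It differed from the shfLuc mean by 0.37, 0.66, 0.51 and 0.60 log2 CPM in shPpp1r17 1 to 4, and by -0.09 to 0.18 in the shfLuc libraries. Whether the split lies in the knockdown or in the tissue collected was not tested. Without shPpp1r17 2 and 3, edgeR called 0 members (6 higher and 1 lower at an unadjusted p under 0.05), and the median log2 fold change of the members was 0.27. Of all 18037 genes tested in that fit, 37 were called (0.205%), 6.08% were higher and 6.76% lower at an unadjusted p under 0.05.

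Markers of microglia and macrophages varied across libraries in a similar order. In bulk RNA, more cells of a type and more RNA per cell cannot be told apart. The mean level of 12 microglia and macrophage markers was 4.48, 5.08, 4.97 and 4.24 log2 CPM in shPpp1r17 1 to 4, against 4.36, 3.96, 4.06 and 3.69 log2 CPM in shfLuc 1 to 4. Libraries shPpp1r17 2 and 3 were again highest, and shfLuc 1 again lay between shPpp1r17 1 and 4. Of the 12 markers 4 were called higher, among them Tyrobp, Cd68 and Lyz2, and none of the 12 was at 0 in any library. The share of all tested genes called higher was 3.39%, which is the background for the marker lists below as well. Their summed level was 353 to 610 CPM in shPpp1r17 and 253 to 345 CPM in shfLuc. The homeostatic markers P2ry12 (log2 fold change 0.27, SE 0.09) and Tmem119 (0.09, SE 0.24) did not pass the test.

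With the mean marker level of each library as a covariate, a fit chosen after seeing the data, the median log2 fold change of the members was -0.074. Then 0 members passed in edgeR, with 0 higher and 3 lower at an unadjusted p under 0.05. In that fit 0 of all tested genes passed, with 727 higher and 706 lower at an unadjusted p under 0.05. The marker level and the group largely move together in 8 libraries, so their parts in these values cannot be told apart.

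**Figure D4:**
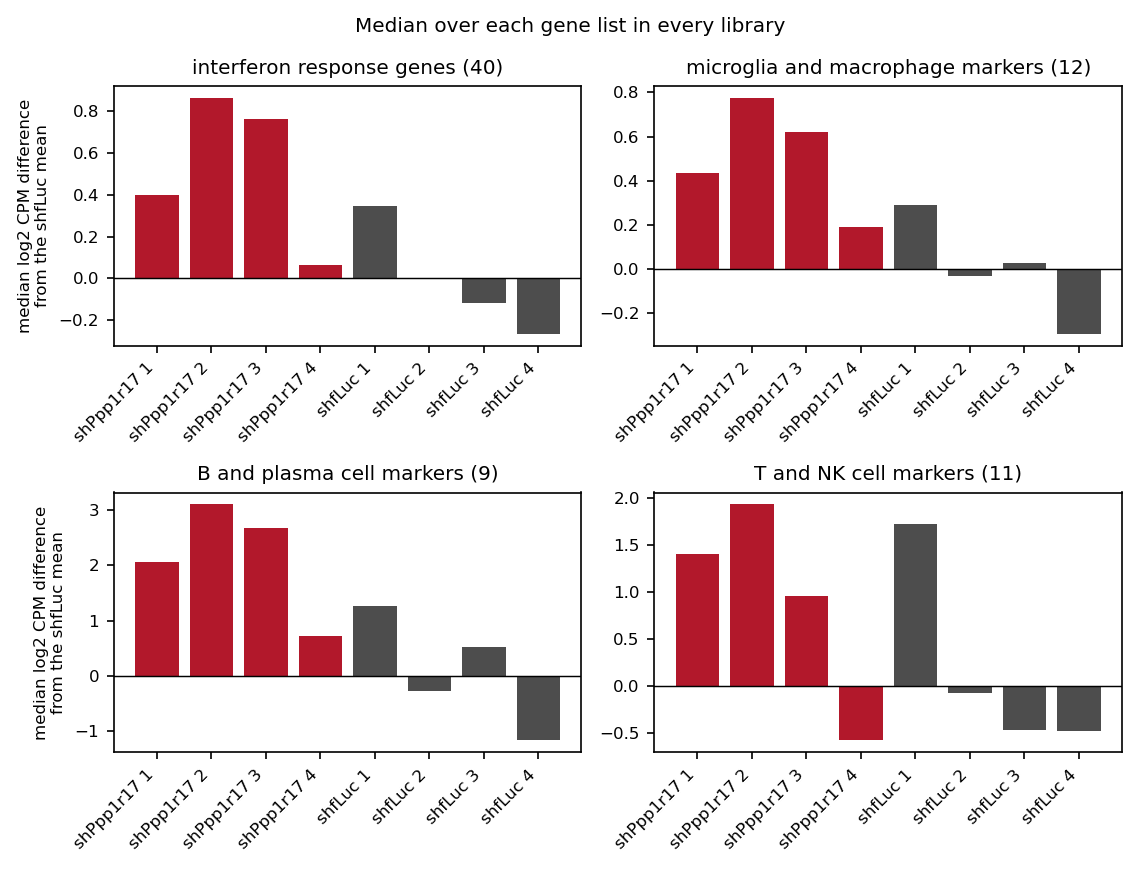
Median difference from the shfLuc mean in log2 CPM, for each library, over the interferon response genes and over markers of microglia and macrophages, of B and plasma cells and of T and NK cells; the vertical scales differ. In all 4 panels shPpp1r17 2 is the highest bar and shfLuc 1 is the highest of the shfLuc bars.

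Of the B and plasma cell markers, Jchain and Ighm were called higher, 2 of 7 tested. The 9 markers summed to 409 to 2626 CPM in shPpp1r17 and 35.0 to 446 CPM in shfLuc. Their median difference from the shfLuc mean was 2.07, 3.11, 2.68 and 0.72 in shPpp1r17 1 to 4 and 1.27, -0.27, 0.52 and -1.17 in shfLuc 1 to 4, in log2 CPM. Among the shfLuc libraries, shfLuc 1 was the highest for 5 of these 9 markers, but it was the lowest for Ighm, an immunoglobulin heavy chain gene, at 26.6 CPM. Ms4a1 was at 0 reads in shPpp1r17 4 and in shfLuc 4.

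Of the T and NK cell markers, 0 of 6 tested passed in edgeR, and 3 were higher at an unadjusted p under 0.05. The 11 markers summed to 18.1 to 30.3 CPM in shPpp1r17 and 11.5 to 22.6 CPM in shfLuc. Their median difference was 1.41, 1.94, 0.96 and -0.58 in shPpp1r17 1 to 4 and 1.73, -0.068, -0.47 and -0.48 in shfLuc 1 to 4, in log2 CPM. Here shfLuc 1 was the second highest of the 8 libraries and shPpp1r17 4 the lowest, an order unlike that of the members. Among the shfLuc libraries, shfLuc 1 was the highest for 8 of the 11 markers. All 5 markers of blood cells, hemoglobin genes and Alas2, were called higher, with a median log2 fold change of 0.99. Their median difference was 0.89, 1.53, 0.88 and 0.65 in shPpp1r17 1 to 4 and 0.42, -0.13, 0.14 and -0.40 in shfLuc 1 to 4, in log2 CPM. As for the microglia markers, shPpp1r17 2 was the highest library and shfLuc 1 the highest shfLuc library, the latter for all 5 blood markers.

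Markers of cells other than immune and blood cells also differed between the groups. Gfap, an intermediate filament protein of astrocytes, stood at 119.5, 340.8, 246 and 110.4 CPM in shPpp1r17 1 to 4 and at 85.9, 40.7, 53.5 and 51.0 CPM in shfLuc 1 to 4. It was the 1 of 5 astrocyte markers called higher (log2 fold change 1.82, SE 0.33, adjusted p = 0.0124), with the groups apart and shPpp1r17 2 and 3 highest. Aldh1l1, of the same 5, lay apart in the lower direction and was not called. It differed from the shfLuc mean by -0.50, -0.19, -0.30 and -0.29 log2 CPM in shPpp1r17 1 to 4. In the shfLuc libraries its difference was -0.04 to 0.07. The astrocyte markers summed to 1225 to 1658 CPM in shPpp1r17 and 1209 to 1326 CPM in shfLuc. Of 5 oligodendrocyte markers Mobp was called higher (0.79, adjusted p = 0.0277 in edgeR), and the 5 summed to 1107 to 2019 CPM in shPpp1r17 and 1085 to 1135 CPM in shfLuc. Of 5 endothelial markers Ly6c1, which interferon is also known to induce, was called higher (0.84, adjusted p = 0.0151 in edgeR), and the 5 summed to 124 to 207 CPM in shPpp1r17 and 117 to 141 CPM in shfLuc. Of 5 neuronal markers Tubb3 was called higher (0.38) and Syt1 (-0.37) and Eno2 (-0.43) lower, and the 5 summed to 2998 to 3322 CPM in shPpp1r17 and 3030 to 3100 CPM in shfLuc. The part of any of these cells, or of microglia, in the levels of the interferon response genes was not tested. The microglia marker covariate cannot decide it, because marker level and group largely move together.

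The rest of the pathway showed 1 call. Of 61 other genes of the pathway, 37 were tested, and their median log2 fold change was 0.05. Of all tested genes 3.39% were called higher and 6.06% in either direction, so 1 of 37 does not exceed the background. Ifi204, a sensor of DNA of the PYHIN family that is high in macrophages, stood at 2.46, 1.25, 3.29 and 1.5 CPM in shPpp1r17 1 to 4 and at 0.73, 0.34, 0.47 and 0 CPM in shfLuc 1 to 4. The groups lay apart, and the log2 fold change was 2.46 (SE 0.65, adjusted p = 0.0416). The call was lost without each of 6 single libraries (shfLuc 2, 3 or 4, or shPpp1r17 1, 2 or 3) and with effective lengths as an offset (adjusted p = 0.0534).

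Isg20, an exonuclease that degrades single-stranded RNA, stood at 1.88, 3.51, 1.83 and 1.88 CPM in shPpp1r17 1 to 4 and at 0.91, 1.11, 0.38 and 1.5 CPM in shfLuc 1 to 4. Its groups lay apart, but it missed the threshold (log2 fold change 1.21, SE 0.41, adjusted p = 0.0958). Of 8 tested receptors and kinases and 8 other transcription factors, 0 passed in edgeR, and 0 did at an unadjusted p under 0.05. They include the receptor chains Ifnar1 (log2 fold change -0.11, SE 0.11) and Ifnar2 (-0.25, SE 0.14). The smallest unadjusted p in these 2 groups belonged to Il10rb, a chain of the interferon lambda and interleukin 10 receptors, at 8.75, 11.8, 10.7 and 9.05 CPM in shPpp1r17 1 to 4 and 8.73, 7.41, 8.97 and 7.16 CPM in shfLuc 1 to 4, and to Irf8, a factor of macrophages and microglia. Irf8 stood at 4.61, 5.08, 6.61 and 2.65 CPM in shPpp1r17 1 to 4, against 4.84, 2.64, 2.05 and 1.26 CPM in shfLuc 1 to 4. Il10rb overlapped between the groups through shPpp1r17 1 and shfLuc 3, and Irf8 through shfLuc 1, which lay above shPpp1r17 1 and 4.

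The promoters of the members were searched for the ISRE. The members were chosen as interferon-stimulated genes, and the ISRE is the element of such genes. A share of matches above that of all genes therefore follows from the choice of list and says nothing about these libraries. The letters GAAANNGAAA on either strand (TTTCNNTTTC on the other) were searched from 250 bases before to 50 bases after each gene's start in RefSeq's promoters of GRCm38.p6. They were found for 16 of the 30 members with a promoter in that table and for 3.99% of the 27025 genes in it. The GAS element TTCNNNGAA, a site of STAT dimers, was found for 8 of the 30 members and 9.55% of genes. A GAS match can overlap an ISRE match.

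Matches beside genes that were called or just missed the threshold are shown first, and matches beside members with fold changes near or below 0 after them, so that the letters can be compared. Each line gives 30 bases, 5′ to 3′ on the strand of the gene, with the ISRE match in capitals.
Isg15, chr4:156200865-156200894, minus strand: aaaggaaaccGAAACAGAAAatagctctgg
Ifitm3, chr7:141010706-141010735, minus strand: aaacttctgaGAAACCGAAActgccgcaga
Trim30a, chr7:104465210-104465239, minus strand: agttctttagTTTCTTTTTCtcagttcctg
Ifit1, chr19:34640794-34640823, plus strand: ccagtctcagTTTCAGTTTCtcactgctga
Ifit3, chr19:34583397-34583426, plus strand: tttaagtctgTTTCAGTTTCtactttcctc
Gbp7, chr3:142530273-142530302, plus strand: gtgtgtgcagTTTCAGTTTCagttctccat
Stat2, chr10:128270266-128270295, plus strand: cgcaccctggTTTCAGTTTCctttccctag
Ddx58, chr4:40239804-40239833, minus strand: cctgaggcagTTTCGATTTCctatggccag
Eif2ak2, chr17:78882535-78882564, minus strand: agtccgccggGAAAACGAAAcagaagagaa

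The same 10 letters, TTTCAGTTTC, stood before Ifit1, Ifit3, Gbp7 and Stat2, whose log2 fold changes were 1.04, 0.67, 0.55 and -0.02. Isg15 had 3 overlapping matches, beginning at -78, -72 and -66 relative to its start. The 16 tested members with a match had a median log2 fold change of 0.70 with 12 above 0, and the 14 with a promoter in the table and no match had 0.30 with 11 above 0. The range was -0.26 to 1.38 with a match and -0.35 to 1.84 without, so members of both kinds lay on both sides of 0. Usp18 and Rtp4 were among the members not searched.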

How the data were processed

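Per the file headers, each deposited table gives gene length, effective length, TPM and estimated (expected) counts of reads by gene. The labels' protocols name a PicoPure kit for RNA isolation and a SMARTer kit for the libraries. Tools named in the submitters' processing notes are DRAGEN, bcl2fastq, limma and edgeR; their settings, the genome build and strand handling are not stated there. Symbols were matched for 55141 of 55487 identifiers.

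The expected counts deposited by the authors (up to 10.1% of genes fractional in a library) were rounded and tested with edgeR 4.0.16 in R 4.3.3 (quasi-likelihood, TMM factors, minimum count 10, minimum total count 15, group as the single term, Benjamini-Hochberg over all tested genes, threshold 0.05). CPM are scaled by TMM factors, and log2 CPM used a prior count of 2. A standard error is the size of the log2 fold change divided by the square root of F. The deposited TPM, scaled by the authors, served to compare genes and, as log2(TPM + 1), in an alternative. Totals ran from 23070147 to 33907984 estimated reads; PCR copies cannot be told from separate molecules, so limits cover counting error only. Chi-square per degree of freedom between libraries of 1 group was 7.46 to 40.2, so none was a copy of another. In simulated data over 16934 genes, 46% of 1.5-fold, 72.7% of 2-fold and 96.8% of 4-fold changes were recovered, with 4.83% of calls false. The simulated counts were drawn from the shfLuc means, with a spread set by expression level and not gene by gene. They held no split within the shPpp1r17 group, so recovery in the real libraries may be lower.

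The members and lists were chosen with earlier results of these data known. Values in every library are given for members past the threshold, those whose groups do not overlap, and, in each role, those with the smallest p and the highest TPM, with the same by p for other pathway genes. Ifit1, Ifi44, Zbp1, Mx1, Bst2 and other genes named beyond this were chosen after their values were seen. Alternatives were RLE factors, library totals, other filters, DESeq2 1.42.0, limma 3.58.1 (voom, and log2(TPM + 1) with a pseudocount of 1), effective lengths, a replicate block and libraries left out. The marker covariate and the fits of limma voom and DESeq2 with libraries left out were added after seeing the data. Positions come from GENCODE M21 (GRCm38), which may differ from the authors' build; similar transcripts were found with blastn 2.17.0 (at least 90% identity over 200 bases). Some genes of the marker and pathway lists are not reported here.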

Additional observations from a re-analysis of the deposited data

Results flagged for a closer look

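In 3 of 80 groups of 4 libraries examined (named members, pathway genes and Ppp1r17, and the members' median and summed levels, in each group), 1 library stood apart from the other 3 by more than Dixon's 95% limit, where chance alone gives about 1 in 20. Usp18 was at 5.57 CPM in shfLuc 1, above the 2.90 to 3.19 CPM of the other shfLuc libraries. Ifi44 was at 1.69 CPM in the same library, from 39 reads, where the others had 1, 2 and 7 reads. Isg20 was at 3.51 CPM in shPpp1r17 2, where the other shPpp1r17 libraries lay between 1.83 and 1.88 CPM.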

How the results depend on the processing

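Depth limits the type I ligands, Zbp1, Oas2 and Mx1, and Oas1a, Oasl1, Mx2 and Ifi44 rest on few reads. Against 5 members called, edgeR called 10 with no expression filter (of 40 tested), DESeq2 called 10, and limma on log2(TPM + 1) called 3, where 38.8% of all calls were higher against 56% in the main test. RLE factors and library totals gave the same 5, a stricter filter gave 6 and effective lengths gave 4. Limma voom gave 5, with Ifi44 in place of Usp18. Leaving out 1 library gave 0 to 11 members higher with edgeR, 0 to 16 with limma voom and 4 to 16 with DESeq2, each with 0 to 1 lower (Cmpk2, without shPpp1r17 4). Over all genes these fits called 0 to 1548 against 1050, 0 to 1671 with limma voom and 1002 to 2367 with DESeq2, which called 1925 with all libraries. Without shPpp1r17 2 and 3, 0 members and 37 genes were called, 0 of the other pathway genes, and Ppp1r17 passed (-0.88, adjusted p = 0.00428), as it did with limma voom (-3.31, adjusted p = 0.0368). Of the other pathway genes, DESeq2 called 2, effective lengths 0, and leaving out 1 library in edgeR 0 to 2, against 1.

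With the marker covariate, 0 members and 0 genes passed, the members' median was -0.074, and values turned negative for Ifit2 (-0.54), Gbp2 (-0.075), Irf9 (-0.090), Oasl2 (-0.10), Parp14 (-0.39), Parp9 (-0.69), Ifi27 (-0.087), Il10rb (-0.0054) and Irf8 (-0.27). Irf9 also turned on log2(TPM + 1) (-0.062) and with 1 library left out (-0.020 to 0.086, below 0 in 3 of 8 fits), Dhx58 on log2(TPM + 1) (-0.041) and without shPpp1r17 2 and 3 (-0.024), and Parp9 without these 2 libraries (-0.24). Ifit2 also turned on log2(TPM + 1) (-0.0061), without these 2 libraries (-0.27) and with 1 library left out (-0.062 to 0.22). Stat2 turned positive with limma voom (0.0015), log2(TPM + 1) (0.035), effective lengths (0.12), the replicate block (0.0053) and 1 library left out (-0.18 to 0.066), and Ifih1 with 1 library left out (-0.28 to 0.035). The cause was not tested. Other values of the 36 members and pathway genes recomputed kept their direction (574 on the same side of the threshold, 51 no longer past it, 30 newly past it).

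The deviations of same-numbered libraries correlated at -0.01 to 0.12, and those of other pairs at -0.08 to 0.09. All were weak, and the labels do not state a pairing, so whether the number pairs the libraries was not settled. With the replicate block 7 members were called, 2 of them among the 5 above (Ifitm3 and Rtp4), while Isg15, Usp18 and Trim30a were not, and 4 of the 8 libraries correlated best with their own number.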
